A study of Caenorhabditis elegans with 36 samples.

Results

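The comparison described here is that of whole wild-type worms (Caenorhabditis elegans, strain N2) on *cco-1* RNAi at day 5 of adulthood with the same kind of worms at day 3. Its members are the 6 libraries of those 2 ages, 3 biological replicates each, of 36 libraries in all. They were chosen by their RNAi and day alone, without regard to any measured value. Of the 18949 genes in the table, 15713 reached 1 CPM (the unit of the values, reads scaled to library size) in at least 3 of the 36 libraries and were tested, and 3236 did not. At the edge of this filter, the library that decides had 1.00 CPM of *tag-138*, which was kept, and 0.997 CPM of duo-2, which was not.

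The series followed worms on *cco-1* RNAi and on the empty vector (ev, control) over adult life, on every second day of adulthood between day 1 and day 11, by polyA-selected RNA sequencing. The genotype, strain and whole-worm material were the same in all groups. In the *cco-1* groups, bacteria expressing the double-stranded RNA against *cco-1* were 50% of the food and control bacteria the rest. RNAi was started from the L1 larva. The labels describe every sample as L4 or young adult after 2.5 days at 20°C, whereas the titles give the day of adulthood, and the days used here are those of the titles. The ev worms at days 5 and 3 (3 replicates each) are the measure of what the same interval of adult life does with *cco-1* intact, and they share no library with the *cco-1* RNAi comparison.

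*cco-1* encodes a nuclear subunit of complex IV (cytochrome c oxidase), the last enzyme of the mitochondrial respiratory chain. Lowering it during larval life slows respiration and is known to lengthen life in worms and to call up mitochondrial chaperones, detoxification, innate immune and lysosomal genes. Between days 3 and 5 of adulthood a hermaphrodite at this temperature is passing the peak of egg laying: its sperm, made once at the end of larval life, are being used up, oocytes are still made, and the adult cuticle has been laid down.

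Read depth is not given by the values, which the authors scaled to library size and quantile-normalized, so that no counting interval can be had. The error is measured by the spread between replicates alone. In the fit this spread was pooled over all 36 libraries, so that SE and p do not rest only on the groups compared. The median SD between replicates was 0.11 on the log2 scale at day 5 and 0.087 at day 3 in *cco-1* RNAi worms, against 0.074 and 0.083 in ev worms. The first principal component of the 6 libraries (67.3% of the variance) separated day 5 from day 3. On the second (14.5%) day 5 replicate 2 lay at 17.4, apart from the other 5 libraries at -9.73 to 3.18. In that library the genes with over 3000 exonic bases lay at a median of 0.11 below their mean over the 6 libraries on the log2 scale. In day 5 replicates 1 and 3 they lay 0.11 and 0.10 above that mean, which is taken over both ages. Counts over a list that move by over 1.5 times without day 5 replicate 2 are given both ways. Of the tissue markers, 12 of intestine, 11 of hypodermis, 17 of body wall muscle, 17 of pharynx, 15 of neurons and 8 of the germline passed the filter, so that markers of each were present.

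The transcript targeted by the RNAi was lower in *cco-1* RNAi worms at both ages. *cco-1* had 82.1, 92.7 and 82.2 CPM at day 5, against 62.6, 57.1 and 61.9 CPM at day 3 in *cco-1* RNAi worms. Its levels in ev worms were 149.8, 169 and 151 CPM at day 5, against 192, 172 and 180.0 CPM at day 3. Every *cco-1* RNAi library was below every ev library of its day, and the day 5 libraries of *cco-1* RNAi worms were all above those of day 3. The change in *cco-1* RNAi worms (log2FC 0.49, SE 0.061, limma adjusted p = 4.61e-08) fell just short of the 0.5 that a call requires, and it passed at 0.51 to 0.52 when any 1 of 4 of the libraries was left out. The change differed from that in ev worms by 0.70 on the log2 scale (adjusted p = 4.02e-08), so that the gap to ev was narrower at day 5 than at day 3.

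A gene was called changed when its difference in mean log2(CPM + 1) was above 0.5 in size and its Benjamini-Hochberg adjusted p, from a limma fit over all genes tested, was below 0.05. On this scale the change of genes near 1 CPM is understated. In *cco-1* RNAi worms 506 genes (3.22% of those tested) were called higher and 754 (4.80%) lower at day 5, relative to day 3. Over the same interval 1944 genes (12.4%) were higher and 1405 (8.94%) were lower in ev worms. Changes of more than 1 on the log2 scale numbered 67 higher and 124 lower in *cco-1* RNAi worms, against 472 higher and 174 lower in ev worms. The median change of all genes was 0.015 in *cco-1* RNAi worms and -0.065 in ev worms.

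The difference between the 2 changes was tested for each gene as an interaction. It was called for 1345 genes (8.56%) with the higher change in *cco-1* RNAi worms and for 1770 genes (11.3%) with the lower change. Of the 1944 genes called higher in ev worms, 1318 (67.8%) had a lower change in *cco-1* RNAi worms by this test. Of the 1405 genes called lower in ev worms, 550 (39.1%) had a higher change in *cco-1* RNAi worms. These genes were picked by the same ev change that the difference subtracts, so the picking itself raises both shares. By how much was not tested. The genes called in *cco-1* RNAi worms were in part those of ev worms: 248 were higher in both (49% of those in *cco-1* RNAi and 12.8% of those in ev) and 367 were lower in both (48.7% and 26.1%). Opposite calls were few, with 11 genes higher in *cco-1* RNAi and lower in ev worms and 22 genes lower in *cco-1* RNAi and higher in ev worms.

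**Figure D1:**
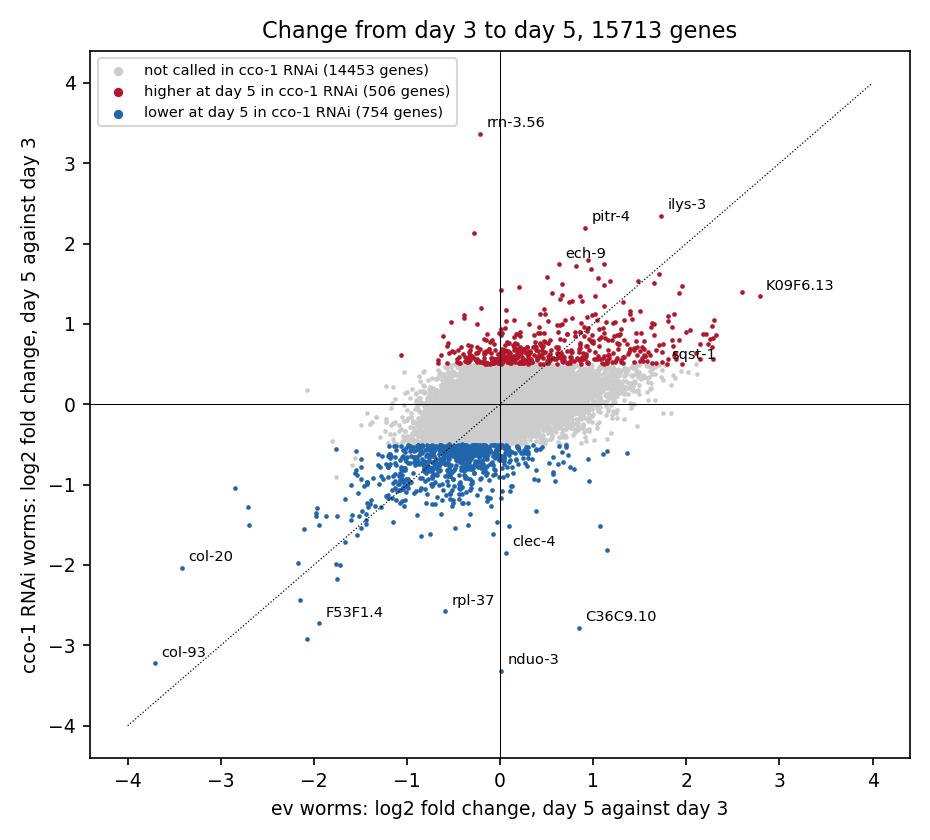
Each point is 1 of 15713 genes, with its log2 fold change (day 5 against day 3, of CPM + 1) in ev worms on the horizontal axis and in *cco-1* RNAi worms on the vertical axis; red and blue mark the 506 and 754 genes called in *cco-1* RNAi worms, and the dotted line marks equal change. Most points spread further along the ev axis than along the *cco-1* RNAi axis, and *nduo-3*, *rpl-37*, *C36C9.10*, *clec-4* and *rrn-3.56* lie far from the dotted line.

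Lysozymes cleave bacterial cell walls. In these whole-worm libraries, fewer cells of a type and less RNA per cell cannot be told apart. Of 12 tested, 5 were higher, 1 was lower and 6 were not called at day 5 in *cco-1* RNAi worms (median log2FC 0.34). Without *ilys-3* and *lys-10*, whose later *cco-1* RNAi libraries (days 5 to 11) all lay above the rest of the series, 3 of 10 were higher and the median was 0.17. Without day 5 replicate 2, 6 of 12 were higher and none was lower. In ev worms 4 were higher and none was lower, with a median of 0.15. *ilys-3*, an invertebrate-type lysozyme of the pharynx and intestine, had the second largest rise of all genes named by the rule. It had 30.5, 27.2 and 29.8 CPM at day 5, against 5.04, 4.65 and 5.07 CPM at day 3 in *cco-1* RNAi worms (log2FC 2.35, SE 0.10, adjusted p = 8.78e-21). The ev worms had 11.2, 12.04 and 11.6 CPM at day 5, against 3.30, 2.52 and 2.59 CPM at day 3. The ev ages did not overlap, and in *cco-1* RNAi worms non-overlap was itself a condition of the rule. The rise was larger in *cco-1* RNAi worms by 0.62 on the log2 scale (adjusted p = 0.000352).

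*lys-7*, an antibacterial effector of the intestine, was the most abundant lysozyme. It had 1352, 1056 and 1219 CPM at day 5, against 547, 547 and 564 CPM at day 3 in *cco-1* RNAi worms (log2FC 1.12, SE 0.20, adjusted p = 9.61e-05). In ev worms the levels were 1964, 1906 and 1999 CPM at day 5 and 951, 962 and 989.6 CPM at day 3. The ages did not overlap in either group, ev worms had the higher level at each age, and the interaction was not called (0.11, adjusted p = 0.795). *lys-4* had 10.7, 11.9 and 10.6 CPM at day 5, against 5.97, 5.64 and 8.01 CPM at day 3 in *cco-1* RNAi worms (log2FC 0.69), and -0.11 was its log2FC in ev worms. *ilys-2* (log2FC 0.90) and *lys-10* (0.69) were also higher, both below 5 CPM in every *cco-1* RNAi library. *lys-2* was lower at day 5 (log2FC -0.52), a call lost when any 1 of 5 of the 6 libraries was left out (-0.53 to -0.49), and *lys-1*, at -0.41, did not pass.

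The cathepsin B family of lysosomal and secreted cysteine proteases split in direction. Of 10 tested, *cpr-4*, *cpr-1* and *cpr-3* were higher and *cpr-8* and *cpr-5* were lower at day 5 in *cco-1* RNAi worms, while *cpr-1*, *cpr-4* and *cpr-2* were higher and *cpr-8* was lower in ev worms. *cpr-4*, whose product is secreted, had 73.8, 73.1 and 69.6 CPM at day 5, against 27.8, 28.8 and 30.2 CPM at day 3 in *cco-1* RNAi worms (log2FC 1.29, SE 0.072, adjusted p = 6.99e-17). In ev worms it had 49.3, 49.9 and 48.9 CPM at day 5, against 32.97, 25.3 and 27.7 CPM at day 3, with no overlap in either group and a larger rise in *cco-1* RNAi worms (interaction 0.52, adjusted p = 8.77e-05). Without ev day 3 replicate 1 the interaction was 0.42 and without *cco-1* RNAi day 3 replicate 1 it was 0.49, which are not called. *cpr-1*, the intestinal cathepsin B, rose in both groups, with log2FC 0.86 in *cco-1* RNAi worms and 1.27 in ev worms.

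The 2 members that fell were both well above their ev level at either age. *cpr-5* had 138, 173 and 138 CPM at day 5, against 242, 241 and 238 CPM at day 3 in *cco-1* RNAi worms (log2FC -0.69, SE 0.11, adjusted p = 1.63e-05). In ev worms it stayed between 15.2 and 17.95 CPM in all 6 libraries, far below either age of *cco-1* RNAi worms, and the interaction was called (-0.72, adjusted p = 0.000575). *cpr-8* had 7.55, 7.92 and 8.01 CPM at day 5, against 16.9, 17.5 and 17.9 CPM at day 3 in *cco-1* RNAi worms (log2FC -1.06, SE 0.11, adjusted p = 3.7e-10), with means of 1.72 CPM at day 5 and 2.90 CPM at day 3 in ev worms. *cpr-6* (log2FC 0.23, adjusted p = 0.325) and *F57F5.1* (0.25, adjusted p = 0.371), the most abundant members, were not called. Among 41 other lysosomal proteins 3 were higher and 6 were lower, a median of 0.063, and without day 5 replicate 2 the counts were 5 higher and 4 lower. *hex-1*, the lysosomal hexosaminidase, was one of the 3, with 116, 122 and 121 CPM at day 5, against 71.1, 73.6 and 77.5 CPM at day 3 in *cco-1* RNAi worms (log2FC 0.68, SE 0.12, adjusted p = 4.48e-05) and a log2FC of 0.054 in ev worms. None of 5 cathepsin L, Z and F genes, none of 8 cathepsin A genes and 1 of 21 subunits of the V-ATPase, the pump that acidifies lysosomes, was called.

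**Figure D2:**
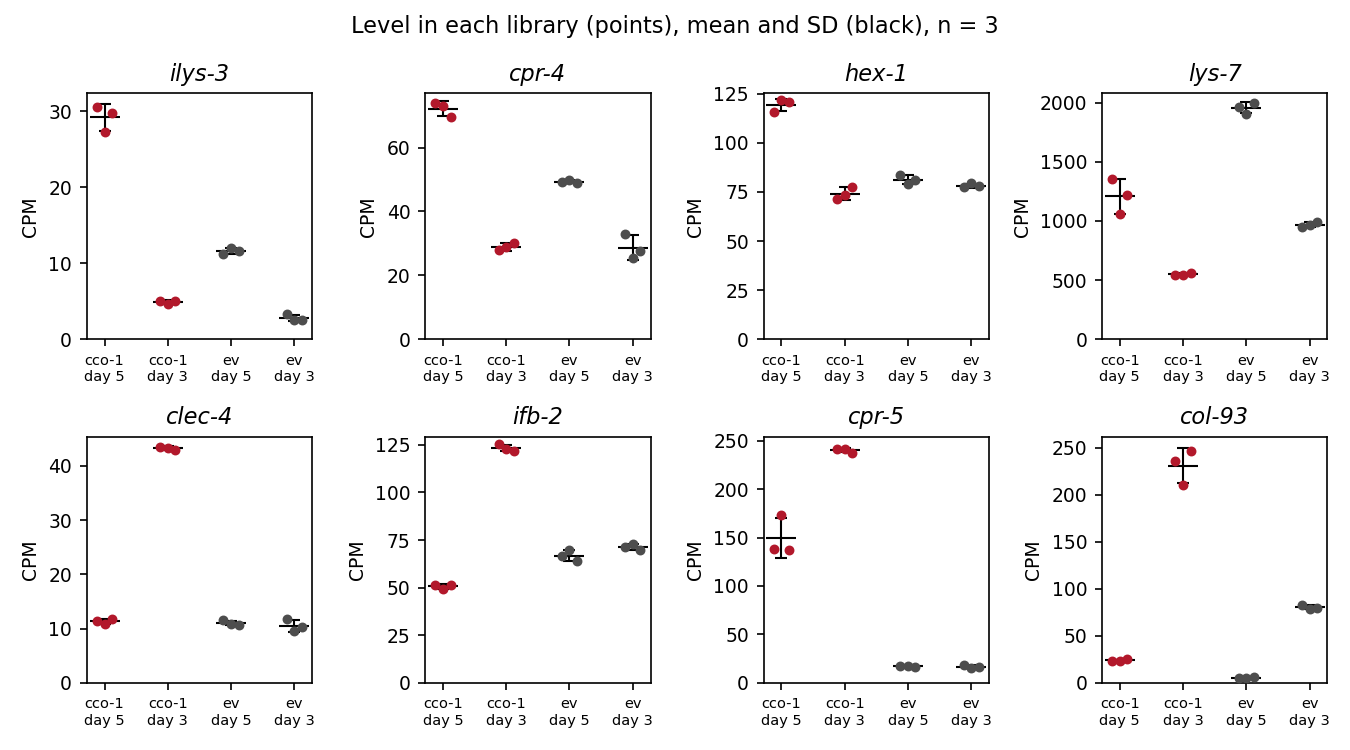
Level in CPM of 8 genes in each library (points) with the mean and SD of 3 replicates (black), in *cco-1* RNAi worms (red) at day 5 and day 3 and in ev worms (grey) at day 5 and day 3. The day 5 points of *cco-1* RNAi worms lie above those of day 3 for *ilys-3*, *cpr-4*, *hex-1* and *lys-7* and below them for *clec-4*, *ifb-2*, *cpr-5* and *col-93*, and the ev points of *clec-4*, *ifb-2*, *cpr-5* and *hex-1* differ little between the ages.

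C-type lectins, a large family of secreted sugar-binding proteins of which many answer to bacteria, moved both ways. Of 122 tested, 10 were higher and 12 lower at day 5 in *cco-1* RNAi worms (median -0.034), against 7 higher and 30 lower in ev worms (median -0.28). The interaction was called for 29 of the 122 with the higher change in *cco-1* RNAi worms and for 10 with the lower. Over all genes tested it was called for 8.56% with the higher and 11.3% with the lower change, so the 10 are no more than the general share. *clec-4* fell the most. It had 11.5, 10.8 and 11.7 CPM at day 5, against 43.6, 43.4 and 42.9 CPM at day 3 in *cco-1* RNAi worms (log2FC -1.85, SE 0.10, adjusted p = 1.27e-17). Its levels in ev worms were 11.5, 10.9 and 10.7 CPM at day 5, against 11.7, 9.57 and 10.3 CPM at day 3. At day 5 the *cco-1* RNAi libraries lay at the level of the ev libraries, and at day 3 all of them lay above it. *clec-66* fell likewise (log2FC -1.02, against 0.12 in ev worms). *clec-60*, a gene induced by Gram-positive infection, had 5.92, 7.28 and 8.61 CPM at day 5, against 2.16, 2.64 and 3.07 CPM at day 3 in *cco-1* RNAi worms (log2FC 1.19, SE 0.14, adjusted p = 1.08e-08), and *clec-5* and *clec-146* rose to means of 33.3 and 55.4 CPM at day 5, against 14.8 and 23.1 CPM at day 3.

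The short antimicrobial peptide genes (nlp, cnc, fip, fipr and abf genes) had calls in both directions. Of 39 tested, 6 were higher and 15 were lower in *cco-1* RNAi worms (median -0.28), against 7 higher and 8 lower in ev worms (median -0.15). *nlp-31* had 1.66, 1.65 and 1.402 CPM at day 5, against 5.40, 4.52 and 6.54 CPM at day 3 in *cco-1* RNAi worms (log2FC -1.33, SE 0.14, adjusted p = 2.12e-09), while it stayed between 8.59 and 12.3 CPM in ev worms. *nlp-28* (log2FC -1.37) and *cnc-8* (-1.23) fell too. *abf-2*, a defensin-like peptide, and *cnc-4* rose, with log2FC 1.12 and 1.17. These transcripts have a median of 354 exonic bases, and with values adjusted for length 6 were higher and 11 lower, with a median of -0.16. Of 53 transthyretin-related ttr genes, which code for small secreted proteins, 10 were higher and 4 were lower in *cco-1* RNAi worms, against 7 higher and 2 lower in ev worms. *ttr-2* was the most abundant of those that rose (502, 505 and 500.4 CPM at day 5, against 309, 267 and 343 CPM at day 3, log2FC 0.72). *ttr-50* was called in opposite directions, with log2FC -0.78 in *cco-1* RNAi worms and 0.75 in ev worms.

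The respiratory chain genes that passed the test were all lower at day 5, in the mitochondrial genome and in the nucleus. Of 11 genes of mitochondrial DNA, 6 were lower and none higher in *cco-1* RNAi worms (median log2FC -0.51). In ev worms 1 was lower and the median was 0.02. The 6 were *nduo-1*, *nduo-2*, *nduo-3*, *nduo-4* and *nduo-5*, subunits of complex I, and *ctc-2*, a subunit of complex IV. *nduo-1* had 76.3, 67.5 and 64.6 CPM at day 5, against 118.5, 129.8 and 122 CPM at day 3 in *cco-1* RNAi worms (log2FC -0.82, SE 0.085, adjusted p = 7.09e-09), and 178, 155 and 171 CPM at day 5, against 177, 167 and 180.2 CPM at day 3 in ev worms. The *cco-1* RNAi ages did not overlap, whereas the ev ages did. *nduo-5* (log2FC -1.08) fell in *cco-1* RNAi worms with a called interaction. The call of *nduo-4* (log2FC -0.51) was lost when any 1 of 4 of the libraries was left out (-0.49 to -0.45). The abundant *ctb-1* (-0.27) and *ctc-3* (-0.079) did not reach the threshold.

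The largest fall of all genes named by the rule was that of *nduo-3* (MtDNA:11356-11691, plus strand, WBcel235), and it had a different time course. *nduo-3* had 2.22, 2.48 and 1.54 CPM at day 5, against 30.1, 25.9 and 32.4 CPM at day 3 in *cco-1* RNAi worms (log2FC -3.31, SE 0.17, adjusted p = 1.6e-15). The ev worms had 21.4, 19.2 and 21.8 CPM at day 5, against 21.5, 16.8 and 24.01 CPM at day 3, which overlap. It did not come back at later days of *cco-1* RNAi, where all 12 libraries of days 5 to 11 lay between 0.484 and 2.48 CPM, below the lowest of the other 24 libraries of the series (4.87 CPM).

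Of 71 nuclear genes of oxidative phosphorylation tested, 17 were lower, 54 were not called and none was higher at day 5 in *cco-1* RNAi worms (median -0.34), against 4 lower and none higher in ev worms (median -0.22). The interaction was called for 10 of the 71 with the lower change in *cco-1* RNAi worms and for 1 with the higher, *cco-1* itself. Its median over the list was -0.077. Over all genes tested it was called for 11.3% with the lower and 8.56% with the higher change. *cyc-2.1*, cytochrome c, had 276, 381 and 278 CPM at day 5, against 530.4, 493 and 547 CPM at day 3 in *cco-1* RNAi worms (log2FC -0.76, SE 0.091, adjusted p = 2.28e-07). In ev worms it had 308, 326 and 296 CPM at day 5, against 342, 333 and 351 CPM at day 3. The *cco-1* RNAi ages did not overlap, and at day 5 the level in *cco-1* RNAi worms reached that of ev worms. *asg-2*, a subunit of the ATP synthase, had 47.4, 57.8 and 47.6 CPM at day 5, against 85.5, 79.01 and 85.05 CPM at day 3 (log2FC -0.70). Of the 18 mitochondrial chaperones, proteases and import proteins 6 were lower, among them the chaperonin *hsp-60* (log2FC -0.70, against -1.07 in ev worms) and its co-chaperonin *Y22D7AL.10* (-1.06, against -0.81). *hsp-6*, the mitochondrial chaperone that reports the unfolded protein response, was not called, with 519, 463 and 511 CPM at day 5, against 468, 488 and 465 CPM at day 3 (log2FC 0.07, adjusted p = 0.349).

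The 17 nuclear genes of oxidative phosphorylation called lower had a median of 498 exonic bases, against 932 in the other members, and of the 55 members with over 500 bases 8 were lower. In the mitochondrial genome the members that fell were not shorter, with a median of 877 bases, against 772 in the others. With values adjusted for length the count was 17 again, and without day 5 replicate 2 it was 25. Of 81 cytosolic ribosomal proteins 10 were lower and none was higher (median log2FC -0.091). The median length of the 10 was 278 bases, against 583 in the other members, and of the 46 with over 500 bases none was lower. With values adjusted for length 8 of the 81 were lower and none was higher. *rpl-37*, a protein of the large subunit, had 3.55, 6.36 and 4.46 CPM at day 5, against 34.3, 30.4 and 33.99 CPM at day 3 in *cco-1* RNAi worms (log2FC -2.58, SE 0.11, adjusted p = 1.74e-20), and 16.95, 18.9 and 17.9 CPM at day 5, against 27.7, 26.6 and 28.01 CPM at day 3 in ev worms.

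The share of genes called lower declined with exonic length over all genes. In *cco-1* RNAi worms 22.3% of the 274 genes of up to 300 bases and 12.8% of the 956 genes of 300 to 500 bases were lower at day 5, against 2.05% of the 1655 genes of over 3000 bases. In ev worms the shares were 20.4%, 19% and 3.14%. The median log2FC in *cco-1* RNAi worms ran between -0.12 in the shortest genes and 0.062 in the longest, and in ev worms between -0.18 and 0.057. After the values were adjusted for length, 487 genes were higher and 797 lower in *cco-1* RNAi worms, of which 422 and 684 were among those called without the adjustment. With only the genes of over 500 bases, 447 were higher and 570 lower.

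**Figure D3:**
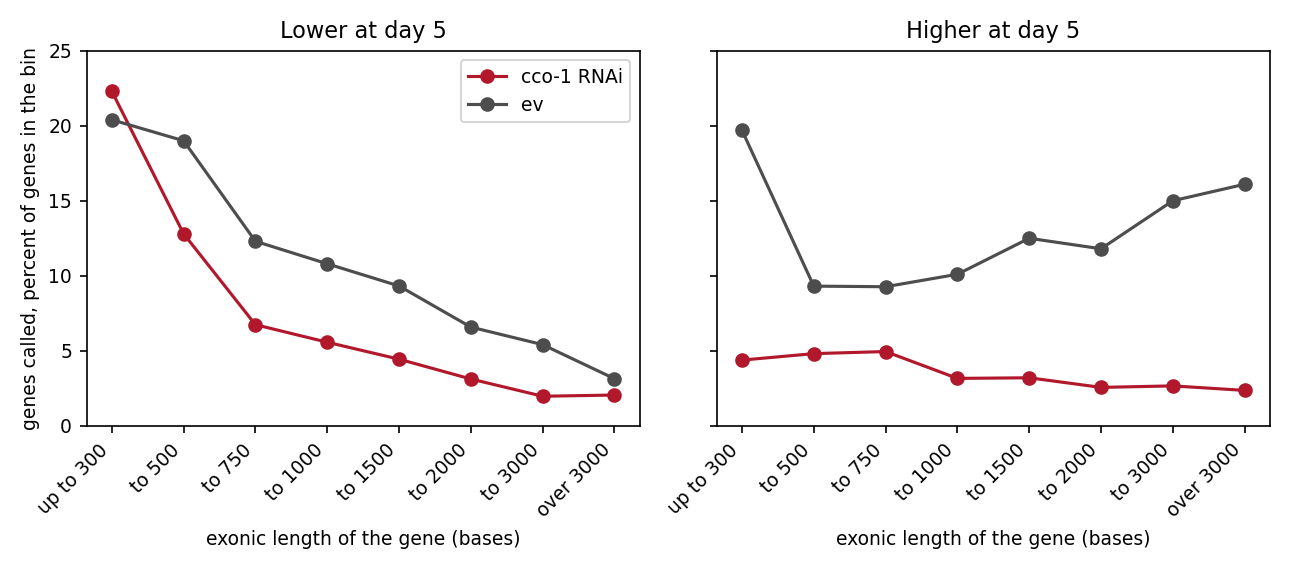
Percent of the genes in each bin of exonic length (bases, horizontal axis) that were called lower (left) or higher (right) at day 5 than at day 3, in *cco-1* RNAi (red) and ev (grey) worms. The share called lower declines in both groups, to 2.05% and 3.14% above 3000 bases, while the share called higher in *cco-1* RNAi worms stays at 4.95% or less in every bin.

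Cuticle collagens gave the highest count of falling genes among the lists. Of the col genes tested, 52 (43.7%) were lower and none higher in *cco-1* RNAi worms (median log2FC -0.48), against 53 lower and 6 higher in ev worms (median -0.42). *col-93* (III:10984552-10985609, minus strand, WBcel235) had 23.1, 23.4 and 24.7 CPM at day 5, against 235.5, 210.3 and 246 CPM at day 3 in *cco-1* RNAi worms (log2FC -3.22, SE 0.22, adjusted p = 1.52e-11). Its levels in ev worms were 4.86, 5.04 and 5.82 CPM at day 5, against 82.6, 78.7 and 79.4 CPM at day 3. The fall was of like size in the 2 groups, and *cco-1* RNAi worms had the higher level at each age. *col-19*, a marker of the adult hypodermis, behaved similarly: 241, 242 and 239.8 CPM at day 5, against 555, 533 and 555 CPM at day 3 in *cco-1* RNAi worms (log2FC -1.18), and 65.99, 65.4 and 63.97 CPM at day 5, against 209, 201 and 215 CPM at day 3 in ev worms. The interaction was called for 13 col genes with the higher and for 13 with the lower change in *cco-1* RNAi worms. Its median over the list was -0.052. Over all genes tested the interaction was called for 8.56% with the higher and 11.3% with the lower change. Of the col genes with the higher change, 3 were named by the rule. *col-80* had 342, 358 and 362 CPM at day 5, against 728, 758 and 697 CPM at day 3 in *cco-1* RNAi worms, and 47.5, 50.7 and 41.8 CPM at day 5, against 336, 353 and 336 CPM at day 3 in ev worms (interaction 1.81, adjusted p = 0.00122), and *col-160* (1.42) and *col-20* (1.38) were the others. All of these collagens are close relatives in sequence, and reads that fit several of them were not counted, so that the values of single members are uncertain.

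The collagens named for body shape (dpy, sqt, rol, bli and lon genes), which are made mainly at larval moults, were mostly near 1 CPM. Of 20 tested, 8 were lower and none higher in *cco-1* RNAi worms, whereas 2 were lower and 5 were higher in ev worms, and the interaction was called with the lower change in *cco-1* RNAi for 9. *dpy-14* had 10.02, 11.7 and 10.1 CPM at day 5, against 11.03, 10.7 and 12.8 CPM at day 3 in *cco-1* RNAi worms, and 72.6, 84.1 and 78.3 CPM at day 5, against 18.97, 20.4 and 24.5 CPM at day 3 in ev worms. The gene rose in ev worms (log2FC 1.84) and was not called in *cco-1* RNAi worms (-0.11, adjusted p = 0.457), and the interaction was -1.94 (adjusted p = 1.23e-12). *dpy-17* (-1.25), *sqt-3* (-1.37) and *dpy-2* (-1.13) had a called interaction in the same direction.

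The body wall muscle markers that passed the test were lower in both groups. Of 17 tested, 9 were lower and none higher in *cco-1* RNAi worms (median -0.52), against 10 lower and none higher in ev worms (median -0.67). Their summed level was 4097 to 4678 CPM in the day 5 libraries, against 6318 to 6592 CPM in the day 3 libraries of *cco-1* RNAi worms, and 2244 to 2292 CPM at day 5, against 3182 to 3827 CPM at day 3 in ev worms. The myosin light chain *mlc-2* had 227, 215 and 208 CPM at day 5, against 485, 433 and 471 CPM at day 3 in *cco-1* RNAi worms (log2FC -1.09, SE 0.16, adjusted p = 7.11e-06). The troponin genes *unc-27* (log2FC -0.998) and *pat-10* (-0.93) fell alike. The myosin heavy chain *unc-54* had 1135, 819 and 1088 CPM at day 5, against 1338, 1557 and 1297 CPM at day 3, a log2FC of -0.47 that did not pass and that passed at -0.56 to -0.50 when any 1 of 4 of the libraries was left out. Of 17 pharynx markers 6 were lower and none higher in *cco-1* RNAi worms, and in ev worms 1 was lower and 2 were higher. Without day 5 replicate 2 the count in *cco-1* RNAi worms was 3, and the pharyngeal myosin *myo-2* (log2FC -0.68) was no longer called. Of 15 basement membrane genes 4 were lower, *unc-52* (perlecan, log2FC -0.82), *epi-1* and *emb-9* among them, and without that library 1 was. With values adjusted for length 8 of the 15 were lower (median -0.52). In ev worms 3 were higher and 2 lower, and the interaction was called for 5 with the lower change in *cco-1* RNAi worms. None of 15 neuron markers and none of 13 markers of spermatheca, uterus and gonad sheath was called in *cco-1* RNAi worms.

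Of 12 intestine markers 3 were lower, 1, *cpr-1*, was higher and 8 were not called, and without day 5 replicate 2 the counts were 3 lower and 2 higher. The sum over the list was 3372 to 3714 CPM at day 5, against 3135 to 3531 CPM at day 3, which overlap. *ifb-2*, an intermediate filament of the intestinal terminal web, had 51.4, 49.2 and 51.5 CPM at day 5, against 125, 123 and 122 CPM at day 3 in *cco-1* RNAi worms (log2FC -1.27, SE 0.063, adjusted p = 2.42e-18). The ev worms had 66.6, 69.8 and 63.9 CPM at day 5, against 71.4, 72.9 and 69.98 CPM at day 3, and the interaction was -1.17 (adjusted p = 8.81e-13). At day 3 the *cco-1* RNAi libraries were all above those of ev worms, and at day 5 all below. *act-5*, the actin of microvilli (log2FC -0.62, against -0.44 in ev worms), and *ifc-2* (-0.57, against -0.54) were the other markers called lower.

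**Figure D4:**
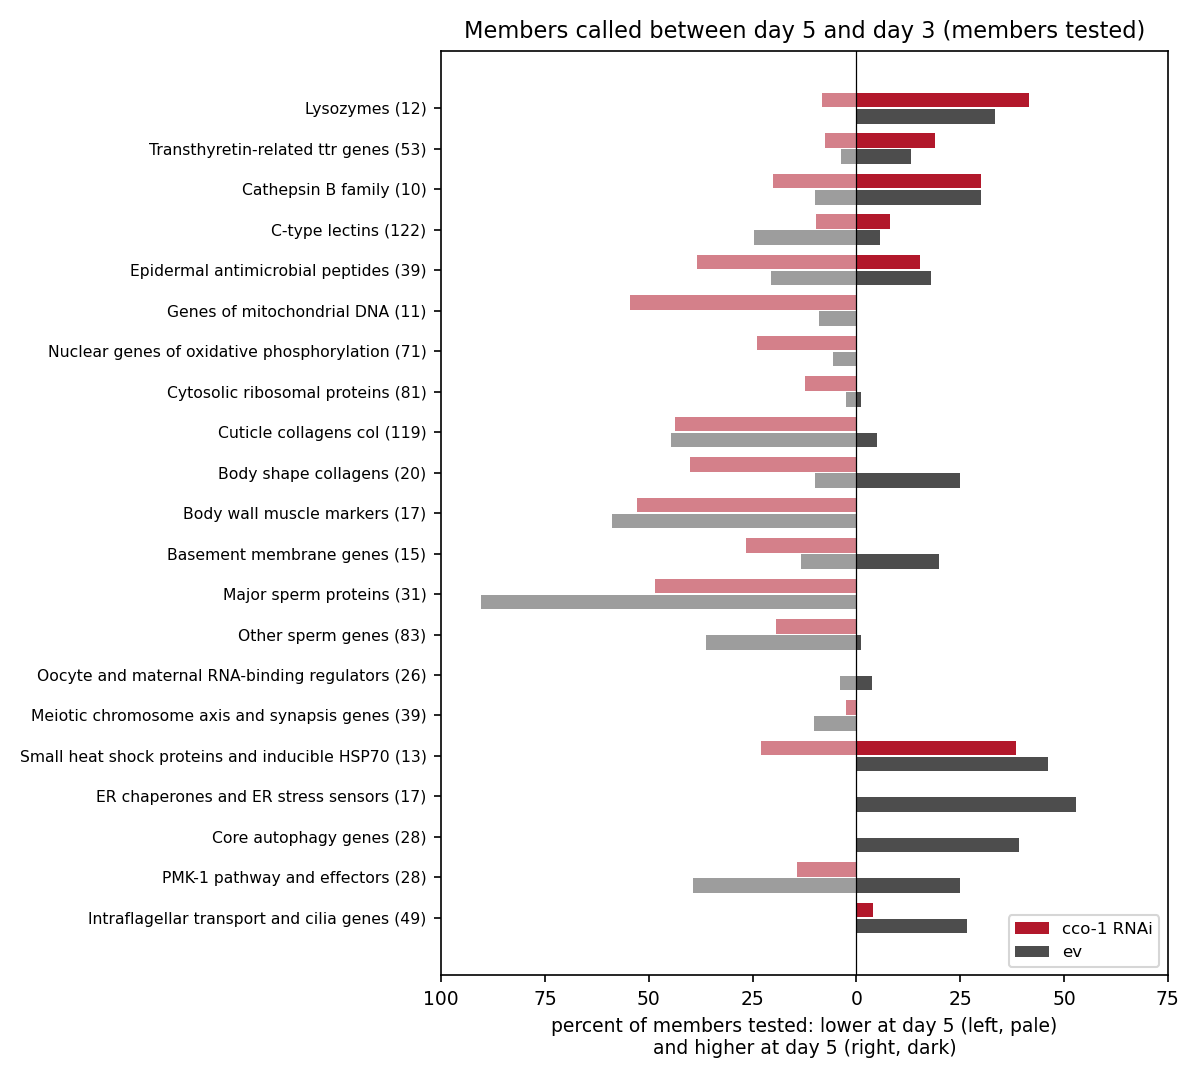
Members called lower (left, pale) or higher (right, dark) at day 5 than at day 3, as percent of the members tested (number in parentheses), for 21 gene lists in *cco-1* RNAi (red) and ev (grey) worms. In *cco-1* RNAi worms the bars for mitochondrial DNA, oxidative phosphorylation, collagens, muscle and sperm point to lower only, and those for ER chaperones and autophagy are empty where ev worms have members that rose.

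The major sperm protein genes that passed the test were lower in both groups. Of 31 major sperm protein genes, which code for the cytoskeletal and signalling protein of worm sperm, 15 were lower in *cco-1* RNAi worms (median -0.49), against 28 in ev worms (median -1.0), and none was higher in either. The interaction was called for 11 with the higher change in *cco-1* RNAi worms. Their summed level was 384 to 442 CPM at day 5, against 586 to 667 CPM at day 3 in *cco-1* RNAi worms, and 161 to 179 CPM at day 5, against 349 to 394 CPM at day 3 in ev worms. These genes are near-identical copies, so that the values of single members are uncertain and none is named. Of 83 other sperm genes 16 were lower and none higher in *cco-1* RNAi worms (19 lower and 3 higher without day 5 replicate 2), against 30 lower and 1 higher in ev worms. Sperm genes are short, and of the 40 with over 500 exonic bases 4 were lower in *cco-1* RNAi worms. With values adjusted for length 12 of the 83 were lower and 2 higher. Of the 31 major sperm protein genes 14 were then lower and none higher.

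Of 26 oocyte and maternal RNA-binding regulators none was called in *cco-1* RNAi worms (median 0.22), and 1 was higher and 1 lower in ev worms (median -0.16), but the interaction was called for 8 with the higher change in *cco-1* RNAi worms. *puf-5*, a translational repressor of late oocytes, had 908, 939 and 929 CPM at day 5, against 693, 724 and 679 CPM at day 3 in *cco-1* RNAi worms (log2FC 0.40, SE 0.039). In ev worms it had 737, 721 and 687 CPM at day 5, against 803, 793 and 807 CPM at day 3. The *cco-1* RNAi libraries were higher at day 5 and the ev libraries lower, without overlap (interaction 0.57, adjusted p = 2.79e-10). *rme-2*, the yolk receptor of oocytes, had the same form (log2FC 0.26, against -0.40 in ev worms, interaction 0.66). Among 19 eggshell genes 5 had a higher change in *cco-1* RNAi worms, among them *chs-1*, the chitin synthase of the eggshell (interaction 0.63), and among 39 genes of meiotic chromosome axes and synapsis 10 did. None of 8 germline markers was called in either group, yet 2 of them had a called, positive interaction (median over the list 0.383). The 20 germline stem cell and P granule genes likewise had no call in either group. Of these 20, 5 had a called, positive interaction (median over the list 0.304). Neither list had a called, negative one.

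Autophagy delivers cell contents to the lysosome. Of 28 core autophagy genes none was called in *cco-1* RNAi worms (median 0.18), against 11 higher in ev worms (median 0.42), and 10 had a lower change in *cco-1* RNAi worms by the interaction. Without day 5 replicate 2, 2 of them were called higher in *cco-1* RNAi worms, *sqst-1* among them. *sqst-1*, the autophagy receptor p62, had 283, 272 and 287 CPM at day 5, against 205.4, 199 and 194 CPM at day 3 in *cco-1* RNAi worms (log2FC 0.49, adjusted p = 1.05e-09, just below the threshold of size, and past it at 0.51 without day 3 replicate 1 or day 5 replicate 2). Its levels in ev worms were 564, 629 and 593 CPM at day 5, against 166, 184 and 172 CPM at day 3 (log2FC 1.77, interaction -1.28). *lgg-1*, the ubiquitin-like protein of autophagosomes, had 419, 436 and 402 CPM at day 5, against 393, 382 and 393 CPM at day 3 in *cco-1* RNAi worms, and means of 844 CPM at day 5 and 425 CPM at day 3 in ev worms (interaction -0.89).

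Of 17 ER chaperones and stress sensors none was called in *cco-1* RNAi worms (median 0.12), against 9 higher in ev worms (median 0.56), and 8 had a lower change in *cco-1* RNAi worms. Without day 5 replicate 2, 1 was called higher. The disulfide isomerase *pdi-6* had 152, 155 and 157 CPM at day 5, against 163, 157 and 163 CPM at day 3 in *cco-1* RNAi worms, and 315, 319.8 and 323 CPM at day 5, against 152, 169 and 160.5 CPM at day 3 in ev worms. The ages overlapped in *cco-1* RNAi worms and did not in ev worms (interaction -1.04, adjusted p = 3.07e-06). *xbp-1*, the transcription factor of the ER stress response, had an interaction of -0.81. Of 13 small heat shock proteins and inducible heat shock genes 5 were higher and 3 were lower in *cco-1* RNAi worms, against 6 higher and none lower in ev worms, and 8 had a lower change in *cco-1* RNAi worms. *hsp-16.48* had 27.9, 23.8 and 25.003 CPM at day 5, against 15.8, 14.8 and 18.5 CPM at day 3 in *cco-1* RNAi worms (log2FC 0.61, SE 0.11, adjusted p = 7.74e-05), and 38.95, 46.5 and 42.7 CPM at day 5, against 13.1, 12.6 and 14.1 CPM at day 3 in ev worms (interaction -0.996). *hsp-17* was lower at day 5 in *cco-1* RNAi worms (log2FC -0.82).

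Genes of fatty acid use were lower more often than higher in *cco-1* RNAi worms, as were all genes tested (4.80% lower and 3.22% higher). Of 63 genes of fatty acid catabolism and the glyoxylate cycle 4 (6.35%) were higher and 10 (15.9%) were lower in *cco-1* RNAi worms, against 8 and 11 in ev worms. *acdh-9*, an acyl-CoA dehydrogenase, fell the most, with 51.03, 47.7 and 51.4 CPM at day 5, against 121, 116 and 123 CPM at day 3 in *cco-1* RNAi worms (log2FC -1.24, SE 0.074, adjusted p = 5.31e-16). *ech-9*, an enoyl-CoA hydratase, rose the most, with 5.57, 4.97 and 5.48 CPM at day 5, against 0.883, 0.937 and 0.856 CPM at day 3 in *cco-1* RNAi worms (log2FC 1.74, SE 0.11, adjusted p = 5.71e-15). The carnitine palmitoyltransferases *cpt-3* (log2FC 1.28) and *cpt-4* (1.02) rose as well, and both were at 1.44 CPM or less in every day 3 library of *cco-1* RNAi worms. The elongases *elo-2*, *elo-5* and *elo-6*, which make polyunsaturated and branched-chain fatty acids, fell by 1.16, 0.75 and 1.02 on the log2 scale in *cco-1* RNAi worms, and their log2FC in ev worms was -0.68, -0.82 and -1.01.

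In a small set of genes the 12 libraries of *cco-1* RNAi days 5 to 11 did not overlap with the 24 libraries of ev worms and of *cco-1* RNAi days 1 and 3, although levels could vary within either. The pattern was noticed in these values and then counted: 32 genes (0.204% of those tested) had all 12 libraries below all of the other 24, and 144 (0.916%) had them above. Of these, 14 and 43 were called between days 5 and 3. *nduo-3* and *rpl-37* belong to the first set, and *ilys-3*, *clec-60*, *ttr-2*, *lys-10* and *puf-5* to the second. *rrn-3.56*, annotated as a pseudogene of the large ribosomal RNA, had the largest rise of all genes named by the rule, with 20.3, 30.3 and 23.3 CPM at day 5, against 1.43, 1.396 and 1.52 CPM at day 3 in *cco-1* RNAi worms (log2FC 3.37, SE 0.16, adjusted p = 4.62e-18) and 1.43, 1.22 and 1.33 CPM at day 5, against 1.46, 2.26 and 1.45 CPM at day 3 in ev worms. Ribosomal RNA genes have near-identical copies in the genome, so that its value is uncertain. *C36C9.10*, a non-coding RNA of 135 bases (X:1681752-1681886, plus strand, WBcel235), had 6.81, 16.8 and 12.4 CPM at day 5, against 80.9, 56.01 and 128 CPM at day 3 in *cco-1* RNAi worms (log2FC -2.78, SE 0.24, adjusted p = 1.77e-09) and 214, 272 and 199 CPM at day 5, against 118, 120.4 and 139 CPM at day 3 in ev worms. *pitr-4*, of the phosphate transporter family, had 14.01, 14.8 and 14.2 CPM at day 5, against 2.06, 2.53 and 2.46 CPM at day 3 in *cco-1* RNAi worms (log2FC 2.20, SE 0.10, adjusted p = 3.09e-19). The labels give no batch, and age and any difference in how the later *cco-1* RNAi libraries were made cannot be told apart. Without the genes of this pattern 463 were higher and 740 lower.

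**Figure D5:**
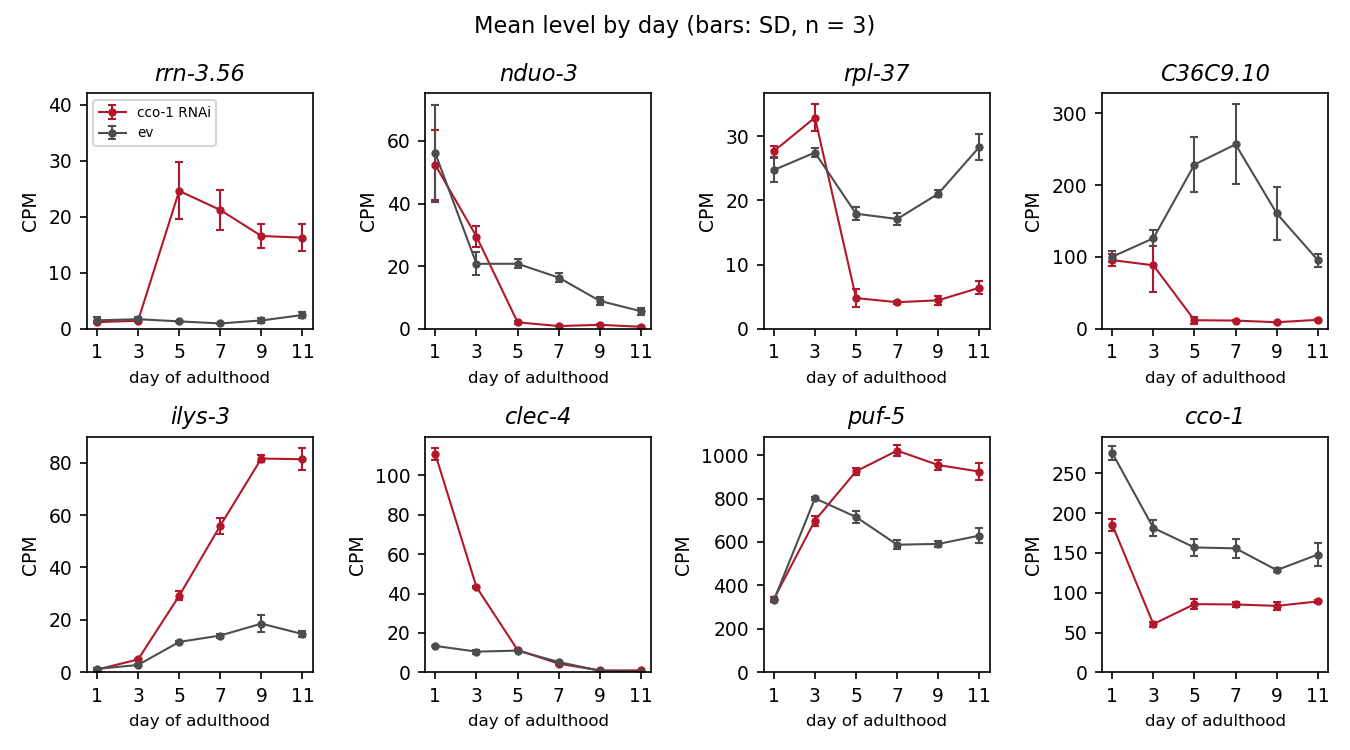
Mean level in CPM (bars, SD of 3 replicates) of 8 genes by day of adulthood (days 1 to 11) in *cco-1* RNAi (red) and ev (grey) worms. *rrn-3.56*, *nduo-3*, *rpl-37*, *C36C9.10* and *puf-5* change level between days 3 and 5 of *cco-1* RNAi and stay on that side of the day 3 mean to day 11, whereas *ilys-3* goes on rising to day 9 and *clec-4* falls from day 1 onward.

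The other genes with the largest changes are mostly without a known role. *F53F1.4* had 6.56, 11.2 and 8.71 CPM at day 5, against 68.9, 59.1 and 60.1 CPM at day 3 in *cco-1* RNAi worms (log2FC -2.72, SE 0.14, adjusted p = 1.34e-15) and a log2FC of -1.95 in ev worms. Of those that rose, *C17C3.5* had 28.96, 28.2 and 28.9 CPM at day 5, against 8.37, 7.87 and 7.35 CPM at day 3 (log2FC 1.75). *F45D3.4* reached the highest level of these, with 95.8, 90.4 and 91.2 CPM at day 5, against 36.95, 33.5 and 34.2 CPM at day 3 (log2FC 1.38, against 1.92 in ev worms). *K09F6.13* rose in both groups, to a lesser degree under *cco-1* RNAi, with a mean of 24.97 CPM at day 5, against 9.22 CPM at day 3 in *cco-1* RNAi worms, and 102 CPM at day 5, against 13.97 CPM at day 3 in ev worms (interaction -1.44). Opposite calls are represented by *K09C4.5*, with log2FC 0.61 in *cco-1* RNAi worms and -1.07 in ev worms, and by *B0205.13*, with -0.96 and 0.96. The remaining genes of the rule that rose, *F20E11.17*, *ZK970.7*, *T05E12.3*, *Y47H10A.5*, *T12D8.5* and *K02D10.4*, had log2FC between 1.34 and 1.69 and were called higher in ev worms too. Those that fell, *col-94*, *col-124*, *col-129*, *col-142*, *col-133* and *T28D6.3*, had log2FC between -2.92 and -1.98 and were called lower in ev worms too. By the size of the interaction the rule adds *Y38F2AR.9* (1.47), *B0024.4* (1.47) and *C02F12.5* (1.41), which rose in *cco-1* RNAi worms and had a negative log2FC in ev worms, and *F53A9.7* (-1.96) and the pseudogenes *ZK380.t2* (-2.96) and *D1005.t1* (-2.58), which fell in *cco-1* RNAi worms. Without day 5 replicate 3 the log2FC of *F53A9.7* was -0.49 and was not called.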

How the data were processed

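RNA of whole worms was polyA-selected and sequenced on a BGISEQ-500 in 36 libraries of 12 groups. Per the paper's methods the authors mapped reads with STAR to WBcel235 and counted unique reads over exons without strand; STAR 2.73a and edgeR 3.24.3 are the versions in the submitters' processing notes. The deposited values are CPM that the authors scaled to library size and quantile-normalized (library sums between 916765 and 953972, lowest value 0.0216). The authors' own comparisons in the table, as deposited log2 fold changes and p-values, and a second deposited table of enrichment scores and q-values, were not used. No per-sample column was left without a sample.

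A gene was kept if 3 or more libraries reached 1 CPM. log2(CPM + 1) was fitted with limma 3.58.1 (R 4.3.3, statmod 1.5.0), with 1 coefficient per group, trended and robust empirical Bayes variances and 24 residual degrees of freedom. Contrasts were day 5 minus day 3 in *cco-1* RNAi worms, the same in ev worms, and their difference. The script was tested on simulated data. With 3 libraries against 3, an exact permutation test of a single gene cannot go below p = 0.1, and none was run. Exonic lengths are of WBcel235 and were found for 15630 of the genes tested. The labels number the replicates without saying whether equal numbers belong together, and the main fit used no pairing.

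The 65 lists of genes rest on gene names and textbook roles, and the members and lists were chosen with earlier results of these data known. Named genes are *cco-1*, in each direction the 12 that changed most among called genes whose ages did not overlap and whose higher mean reached 10 CPM, the 8 with the largest interaction in each direction among genes also called in *cco-1* RNAi worms, and, in each list, the 4 members that changed most and the 2 of highest mean, or all members of lists of 12 or fewer; of the last the text gives a part. Alternatives were other pseudocounts, filters and thresholds, a fit on the groups compared, array weights, the replicate number as a block and each library left out. 3 more were chosen after seeing the data: without the genes whose 12 later *cco-1* RNAi libraries all lay below or above the other 24, only genes of over 500 exonic bases, and values adjusted for length by a loess curve in each library. The plots come from matplotlib 3.10.9 under Python 3.11.15.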

Additional observations from a re-analysis of the deposited data

Results flagged for a closer look

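The change between days 3 and 5 differed between *cco-1* RNAi and ev worms, by the limma test of the difference itself at an adjusted p below 0.05 and a size above 0.5, for 64 of the genes named in the text. Each value that follows is that difference on the log2 scale, the change in *cco-1* RNAi worms minus the change in ev worms, and each group had 3 libraries at each age. For the targeted gene *cco-1* it was 0.70. Genes were named partly by the size of this difference, so that their number says nothing about how common it is.

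Among antimicrobial genes the higher change was in *cco-1* RNAi worms for the lysozymes *ilys-3* (0.62) and *lys-4* (0.81), the lectins *clec-60* (0.71) and *clec-5* (0.64) and the defensin-like *abf-2* (0.69). It was lower for the lectins *clec-4* (-1.91) and *clec-66* (-1.14) and the epidermal peptides *nlp-31* (-1.71), *nlp-28* (-1.05) and *cnc-8* (-0.82). The lysosomal genes differed both ways, with *cpr-4* (0.52) and *hex-1* (0.63) on the higher side and *cpr-5* (-0.72) and *cpr-8* (-0.54) on the lower. The difference of *cpr-8* was -0.49 without ev day 3 replicate 2 and was then no longer called.

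The named respiratory chain genes with a called difference, other than *cco-1*, had a lower change in *cco-1* RNAi worms. They were *nduo-3* (-3.33), *nduo-5* (-1.10), *nduo-2* (-0.94), *nduo-1* (-0.77), *ctc-2* (-0.53) and *cyc-2.1* (-0.62). The call of *ctc-2* was lost when any 1 of 4 libraries was left out (-0.50 to -0.47), and that of *nduo-2* without *cco-1* RNAi day 5 replicate 3 (-0.72). The ribosomal protein gene *rpl-37* (-1.99) was lower as well. The adult collagens *col-80* (1.81), *col-160* (1.42) and *col-20* (1.38) had the higher change in *cco-1* RNAi worms, and *col-94* (-0.85, but 0.18 and not called with a pseudocount of 0.1 CPM) and the body shape collagens *dpy-14* (-1.94), *sqt-3* (-1.37), *dpy-17* (-1.25) and *dpy-2* (-1.13) the lower. Some structural genes of other tissues had the lower change too, with *ifb-2* (-1.17) in the intestine, *myo-2* (-0.86) in the pharynx and *epi-1* (-0.66) in basement membranes. The calls of *myo-2* and *epi-1* were lost without *cco-1* RNAi day 5 replicate 2 (-0.57 and -0.37) and when any 1 of several other libraries was left out (lost values of -0.86 to -0.57 and -0.62 to -0.37).

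Oocyte and eggshell genes had the higher change in *cco-1* RNAi worms, with *rme-2* (0.66), *chs-1* (0.63) and *puf-5* (0.57). Some protein quality control genes had the lower change. They were the autophagy genes *sqst-1* (-1.28) and *lgg-1* (-0.89), the ER genes *pdi-6* (-1.04) and *xbp-1* (-0.81) and the small heat shock genes *hsp-16.48* (-0.996) and *hsp-17* (-0.64). Other lists of this kind differed less. None of 33 proteasome subunits had a called difference (median 0.089). Of 18 mitochondrial chaperones, proteases and import proteins 2 had the lower change and none the higher (median 0.088). In metabolism and detoxification *ech-9* (1.11) was on the higher side and *acdh-9* (-0.54) and *ugt-62* (-0.88) on the lower. The difference of *acdh-9* was -0.49 without ev day 3 replicate 1, which is not called. The neuropeptide-like gene *nlp-39* (0.91) was on the higher side, and *his-24* (-1.60), *ttr-50* (-1.53) and *fbxa-163* (-0.62) were on the lower.

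Of the genes named only for their size of change, *rrn-3.56* (3.58), *K09C4.5* (1.68), *Y38F2AR.9* (1.47), *B0024.4* (1.47), *C02F12.5* (1.41), *pitr-4* (1.28), *F20E11.17* (0.72) and *C17C3.5* (0.63) had the higher change in *cco-1* RNAi worms. Those with the lower change were *C36C9.10* (-3.63), *ZK380.t2* (-2.96), *D1005.t1* (-2.58), *F53A9.7* (-1.96), *B0205.13* (-1.92), *K09F6.13* (-1.44) and *F53F1.4* (-0.77). With a pseudocount of 0.1 CPM the difference was not called for *C17C3.5* (0.305, adjusted p = 0.236), *cpr-8* (-0.425, adjusted p = 0.19) and *col-20* (1.44, adjusted p = 0.0698). With one of 5 CPM it was not called for *clec-60* (0.459), *cpr-4* (0.488) and *ech-9* (0.497), and with array weights it was not called for *cpr-4* (0.499).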

How the results depend on the processing

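The counts kept to within 1.5 times under both other normalizations, but the values came already quantile-normalized, so little movement was possible there. The counts also kept to within 1.5 times with no filter or a filter at 5 CPM, and in a fit on the groups compared alone. The same held without trended and robust variances, with array weights (whose estimation stopped before it converged) and with the replicate number as a block. Under that block 506 genes were higher and 752 lower in *cco-1* RNAi worms, against 1944 and 1406 in ev worms, and it moved no count by over 1.5 times; same-numbered libraries of *cco-1* RNAi worms deviated from their group means with correlations of -0.28 to -0.083, so that the numbers were not read as pairs. The pseudocount moved the counts: at 0.1 CPM 947 genes were higher in *cco-1* RNAi and 2323 lower in ev worms, and at 5 CPM 190 were higher and 386 lower in *cco-1* RNAi, 1005 higher and 441 lower in ev worms, with 426 higher and 901 lower interactions. A threshold of 1 on the log2 scale gave 67 and 124 in *cco-1* RNAi, 472 and 174 in ev and 77 and 294 interactions, and the adjusted p alone gave 3009 and 2557, 3937 and 5261, and 3564 and 2935. With 1 library left out, *cco-1* RNAi worms had 533 to 571 genes higher and 737 to 851 lower, ev worms 1864 to 2037 and 1366 to 1548, and the interaction 1252 to 1467 and 1715 to 1864; the ends of the *cco-1* RNAi ranges were without day 5 replicate 1 and 2 for genes higher and without day 3 replicate 3 and day 5 replicate 2 for genes lower. The alternatives chosen after seeing the data kept these counts within 1.5 times. Of 2128 values of the change of named genes in *cco-1* RNAi worms, 2083 kept direction and side of the threshold, 30 fell below it, 15 went past it and none turned; of 1571 interactions of named genes, 1539 kept both, 31 fell below and 1 turned, that of *col-94*, at 0.18 with a pseudocount of 0.1; the cause was not tested. Of 2470 counts of list members, 220 moved by over 1.5 times. Depth is unknown, so that what it limits at low CPM cannot be given.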

Other observations

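Detoxification enzymes moved both ways. Of 62 UDP-glucuronosyltransferases, which tag foreign and fatty compounds for removal, 4 were higher and 10 were lower at day 5 in *cco-1* RNAi worms, against 6 higher and 18 lower in ev worms, and with values adjusted for length 3 were higher and 15 lower in *cco-1* RNAi worms. *ugt-62* was the most abundant of those that fell, with 185, 182 and 184 CPM at day 5, against 411, 448 and 443 CPM at day 3 in *cco-1* RNAi worms (log2FC -1.23, SE 0.083, adjusted p = 3.21e-13), and 38.6, 36.04 and 35.9 CPM at day 5, against 48.9, 46.1 and 46.5 CPM at day 3 in ev worms. The *cco-1* RNAi ages did not overlap. Of 63 cytochrome P450 genes 5 were higher and 5 were lower in *cco-1* RNAi worms (8 and 4 without day 5 replicate 2), and of 38 glutathione S-transferases none was higher (1 without that library) and 4 were lower, *gst-4* among them (log2FC -0.71, against -0.69 in ev worms). None of 10 GATA factors was called in either group. *elt-2*, the GATA factor of the intestine, had 21.6, 21.4 and 22.3 CPM at day 5, against 19.6, 21.7 and 17.8 CPM at day 3 in *cco-1* RNAi worms (log2FC 0.14, SE 0.087, limma adjusted p = 0.207).

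In *cco-1* RNAi worms 3.22% of all genes tested were higher and 4.80% lower, and in ev worms 12.4% and 8.94%. Of 188 nuclear hormone receptors 5 (2.66%) were higher and 2 (1.06%) were lower in *cco-1* RNAi worms (4 and 1 without day 5 replicate 2), against 29 higher and 13 lower in ev worms. Of 49 genes of cilia 2 (4.08%) were higher, against 13 in ev worms. Of 160 fbxa genes, which code for F-box proteins of the ubiquitin system, 11 (6.88%) were higher and 3 (1.88%) were lower in *cco-1* RNAi worms, against 30 higher and 12 lower in ev worms. *fbxa-163* had 21.8, 24.7 and 23.4 CPM at day 5, against 10.3, 11.2 and 11.8 CPM at day 3 in *cco-1* RNAi worms (log2FC 1.01, SE 0.081, adjusted p = 1.96e-12). *nlp-39*, a neuropeptide-like gene, had 7.81, 6.83 and 6.73 CPM at day 5, against 1.43, 0.937 and 2.16 CPM at day 3 in *cco-1* RNAi worms (log2FC 1.72, SE 0.16, adjusted p = 3.52e-10), and 3.70, 3.66 and 3.38 CPM at day 5, against 1.93, 1.19 and 1.75 CPM at day 3 in ev worms. Neither pair of ages overlapped. The histone *his-24* was called in opposite directions, with log2FC -0.81 in *cco-1* RNAi worms and 0.79 in ev worms. Of the 6 vitellogenins, the yolk proteins, *vit-5* was higher (log2FC 0.65) and *vit-1* was lower (log2FC -0.81) in *cco-1* RNAi worms, against 3 lower and none higher in ev worms. The call of *vit-5* was lost without day 5 replicate 1 (0.46) and in a fit on the 6 libraries alone, in which 2 of the 6 were lower.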
